A study of Mus musculus with 8 samples.

Results

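Among the 8251 genes that the MG-U74Av2 chip measured through probe sets with 1 gene symbol, 82 carried the names of cell cycle and growth arrest genes. They were selected by symbol alone: symbols beginning with Ccna, Ccnb, Ccnd, Ccne, Cdkn, Cdc or Gadd45, symbols in which Cdk, Mcm or E2f precedes a digit, and Pcna, Mki67, Top2a, Mdm2, Rb1, Rbl1 and Gas1. The chip held 105 probe sets for these genes, and the probe set with the highest mean signal over the 8 arrays stood for each gene. By role, 54 of the 82 genes were placed in the cell cycle or growth arrest and the other 28 in a group of other names. Many of the latter act elsewhere, for example Cdc42, a small GTPase of the cytoskeleton, and Cdk5, a kinase of neurons, but some touch the cycle, such as Ccndbp1, which binds D cyclins, and Cdk2ap1, which binds Cdk2. This division was a matter of judgement.

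The study profiled whole lenses of 10-day-old mice of the strains 129SvJae and C57BL/6J, each as wild type (WT) and as knockout (KO) for α3Cx46, the gap junction protein of lens fibers that the gene Gja3 encodes. Each of the 4 groups had 2 arrays (replicates 1 and 2), each of pooled lenses from mice of both sexes, and all the animals were untreated. The KO mice lacked α3Cx46 in every cell, and the same comparison of strains was thus made with and without this gap junction protein, at an age before the cataract of the KO lens can be seen. The labels do not say whether the 2 arrays of a group came from separate pools, so p-values measure the spread between these arrays, which may be technical. The Gja3 probe set gave 1100 and 3381 in WT and 472 and 445 in KO lenses of 129SvJae, against 1968 and 3274 in WT and 448 and 519 in KO lenses of C57BL/6J, so that all KO arrays lay below all WT arrays.

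A lens grows throughout life from its anterior epithelium. Cells divide in a zone near the lens equator, leave the cell cycle there and elongate into fibers, which later lose their nuclei. Cyclins activate cyclin-dependent kinases (CDKs), which phosphorylate the RB family and release the E2F factors that switch on the genes of DNA replication. CDK inhibitors block these kinases, and in the lens Cdkn1b and Cdkn1c, together with Rb1, hold fiber cells out of the cycle. The Gadd45 proteins and the p53 pathway arrest growth after stress or DNA damage.

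MAS5 signals, on a scale where the trimmed mean of each array is 250, are given below for replicates 1 and 2 of each group in that order. Of the 82 genes, 50 were above a signal of 50 on all 8 arrays, 30 on 1 to 7 arrays and 2, Ccnb1ip1 and Mcm10, on none. Between 62 and 71 of them passed that level on an array. A mean above 50 in at least 1 group was required for a test, and 77 genes met it, leaving out Ccnb1ip1, E2f3, Mcm10, Mcm6 and Top2a. Of the 77, 61 met it in all 4 groups, 7 in 3, 5 in 2 and 4 (Ccna1, Ccne2, Cdc73 and E2f8) in 1 group; a gene that met it only where it is high had to differ, and such values are given as a description. Of the usual proliferation markers, Top2a, which untangles DNA in mitosis, gave 8.20 to 65.0, and Mki67, the gene of the proliferation antigen Ki-67, crossed the level of 50 between arrays at 12.4 to 169. The spread grew as signals fell. For the 29 genes with a mean above 300, the 95% interval of the averaged strain ratio reached a median of 0.489 log2 units to either side, a 1.40-fold difference. The corresponding figure was 0.823 for the 27 genes between 100 and 300, and 1.39 (2.62-fold) for the 21 genes under 100. These are medians, so that single genes had narrower or wider intervals.

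With no array left out and no replicate block, no cell cycle or growth arrest gene passed an adjusted p of 0.05 in any comparison. With the block, which pairs arrays by replicate number, Gadd45a alone did, in the averaged strain comparison (adjusted p = 0.0429 by limma). Fits that leave out 1 array, in which calls of Gadd45a and Cdca8 changed, are given in the closing section. In the averaged strain comparison (C57BL/6J over 129SvJae, mean of the WT and the KO difference, limma with Benjamini-Hochberg adjustment), 0 of 77 were called, against 0.367% of all 10078 probe sets tested. Without adjustment, 6 of the 77 genes (7.79%) had a p under 0.05, against 6.97% of all probe sets: Cdca7 and Cdk7 (2.60%, against 3.64%) with a ratio above 0 and Cdca7l, Cdcp1, Gadd45a and Mcm7 (5.19%, against 3.32%) with one below 0. In 8 genes (10.4%) the 4 arrays of one strain did not overlap the 4 of the other, against 5.57% of all probe sets. These were Ccnd1 and Cdk7, above in C57BL/6J (2.60%, against 2.95%), and Cdc123, Cdca7l, Cdcp1, Cdk14, Gadd45a and Mcm7, below (7.79%, against 2.62%). The median log2 ratio of the 77 genes was 0.00578, beside 0.00808 over all probe sets, with 39 genes above and 38 below 0.

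**Figure D1:**
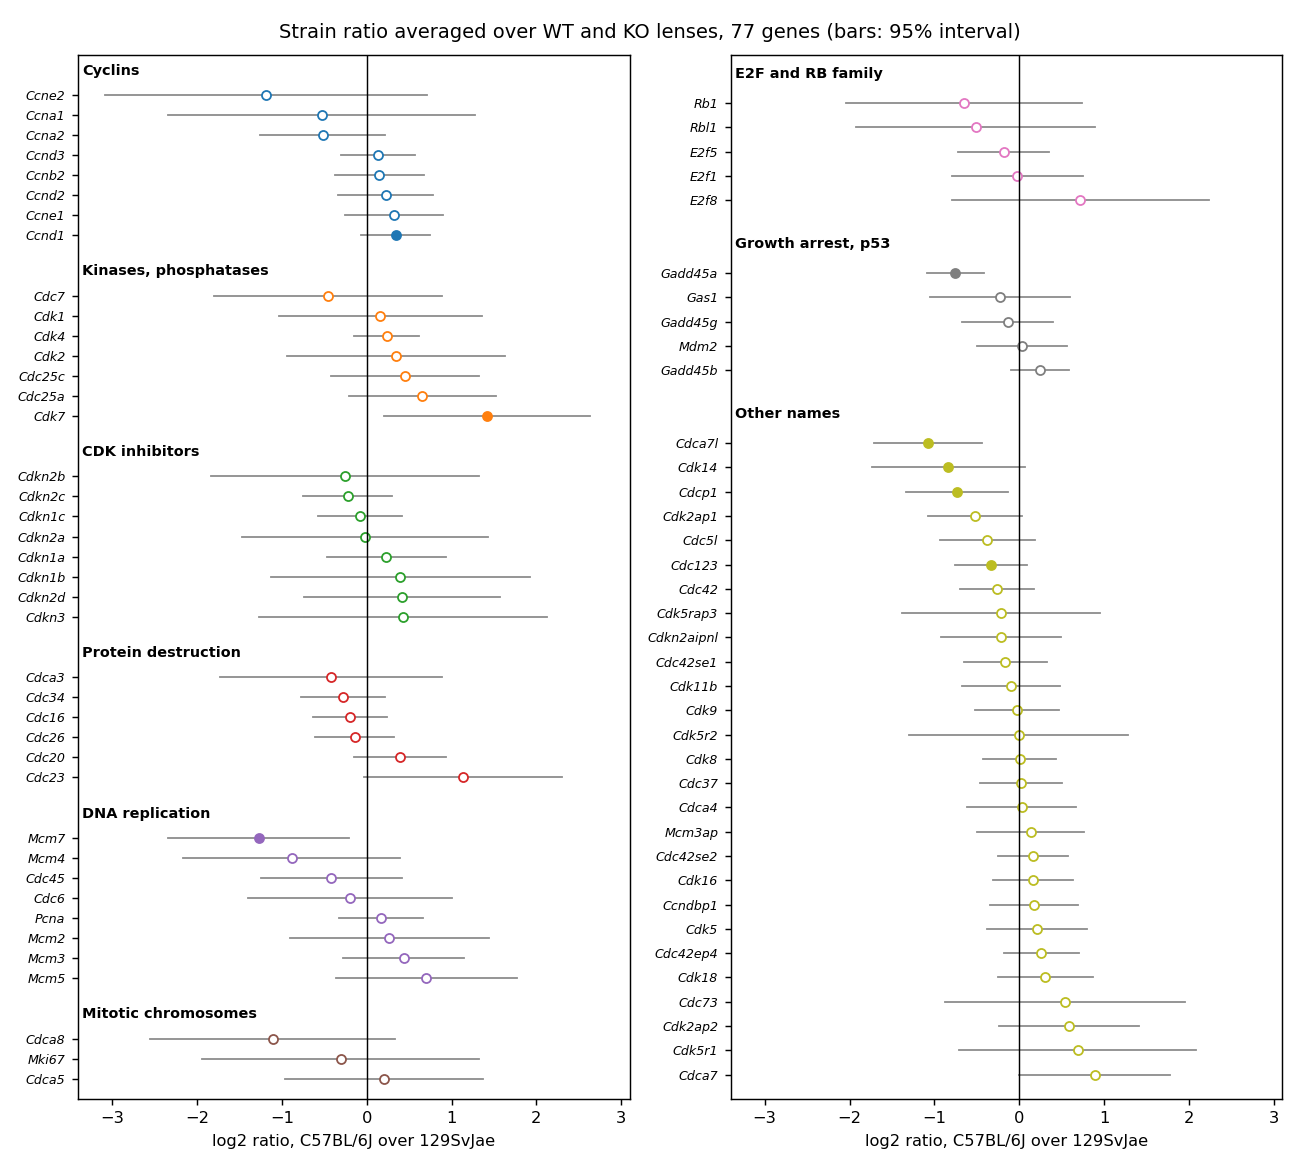
Log2 ratio of C57BL/6J over 129SvJae signal, averaged over WT and KO lenses, for the 77 tested genes in 9 role groups (points: estimates; bars: 95% intervals from the limma fit; filled points: genes whose 4 arrays of one strain do not overlap the 4 of the other). Most intervals span 0; the interval of Gadd45a runs from -1.09 to -0.42, and the widest belong to dim genes such as Ccne2.

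The growth arrest genes held the difference with the smallest p. Gadd45a, a stress-induced inhibitor of CDK1 activity that also takes part in DNA repair and demethylation, had signals of 2863 and 3716 in 129SvJae WT and 3516 and 3324 in 129SvJae KO lenses. In C57BL/6J it had 2448 and 1812 in WT and 1746 and 1991 in KO lenses. All 4 C57BL/6J arrays lay below all 4 129SvJae arrays. Group means were 3289 ± 603 in 129SvJae WT, 3420 ± 136 in 129SvJae KO, 2130 ± 450 in C57BL/6J WT and 1868 ± 174 in C57BL/6J KO lenses (SD, n = 2 each). The averaged log2 ratio was -0.75 (SE 0.16, 95% interval -1.09 to -0.42, or 1.69-fold lower in C57BL/6J), with an adjusted p of 0.0703 by limma. With the replicate number as a block, which pairs the arrays of these groups, the adjusted p was 0.0429, and without replicate 1 of 129SvJae WT it was 0.0494 at a log2 ratio of -0.85; over all alternatives it ran from 0.0429 to 0.680. Compared within replicate numbers, the log2 ratio was -0.23 and -1.04 in WT and -1.01 and -0.74 in KO lenses, below 0 in 4 of 4 pairs. In these bulk samples, fewer cells that express a gene and less RNA per cell cannot be told apart.

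Beside this difference, the summed signal of 7 lens epithelium markers (Pax6, Cdh1, Gja1, Pdgfra, Sparc, Krt18 and Npnt) was 5879 to 6689 in 129SvJae and 6695 to 7050 in C57BL/6J lenses. The C57BL/6J arrays were above on this sum by 0.138 on the log2 scale, and all 7 markers exceeded 50 on every array. The markers did not move together: 4 had a ratio above 0 and 3 one below 0, with a median of 0.0574, and the largest were Npnt (0.85, SE 0.21, without overlap) and Sparc (0.34, SE 0.20), while Pax6 and Gja1 were both at -0.12. The sum of 10 lens fiber markers, all above 50 throughout, was 221900 to 390900 in 129SvJae and 253800 to 414500 in C57BL/6J, and overlapped. Sums of macrophage markers (8 measured, 2698 to 4797 and 2523 to 6560, with Adgre1, Lyz2 and C1qa above 50 on no array), of blood vessel markers (7 measured, 348 to 615 and 425.8 to 705) and of pigmented iris and ciliary body markers (4 measured, 144 to 428 and 178 to 535) also overlapped. So did those of retina markers (5 measured, 156 to 953 and 126 to 344, with Rcvrn at no array above 50) and red blood cell markers (2 measured, 443 to 674 and 176 to 588, with Alas2 at no array above 50), whose sums were lower in C57BL/6J, as Gadd45a was, by -0.87 and -0.52 on the log2 scale. All 4 tested retina markers had a ratio below 0 (median -0.842), and replicate 1 of 129SvJae WT had the highest retina sum. The part of these cell types in the Gadd45a difference was not tested.

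For Gadd45b the point estimates were above 0 on both its probe sets. This gene, induced by TGF-beta and inflammatory signals, had 2953 and 2088, then 2430 and 2426 in 129SvJae and 3413 and 2579, then 2742 and 2996 in C57BL/6J lenses (WT, then KO). The strains overlapped at a log2 ratio of 0.25 (SE 0.16, adjusted p = 0.863). Its probe set, with the suffix _f_at, is of a type that can bind related transcripts. A second Gadd45b probe set had 1275 and 1055, then 1373 and 1367 in 129SvJae and 1469 and 1721, then 1528 and 1504 in C57BL/6J lenses. On it all 4 C57BL/6J arrays lay above all 4 129SvJae arrays, at a ratio of 0.30 (SE 0.15, adjusted p = 0.766), so that whether the strains overlapped depended on the probe set. The strains overlapped for the other 3 genes of the group. Gadd45g, known from neural differentiation and growth arrest, ranged from 436 to 792 at a ratio of -0.14 (SE 0.25). Gas1, a membrane protein of growth-arrested cells that also binds Hedgehog ligands, ranged from 89.4 to 235 (ratio -0.23, SE 0.38), and Mdm2, the ubiquitin ligase that destroys p53, from 346 to 805 (ratio 0.03, SE 0.24). Among the 3 measured Gadd45 genes the point estimates thus pointed both ways, and only the Gadd45a interval excluded 0.

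**Figure D2:**
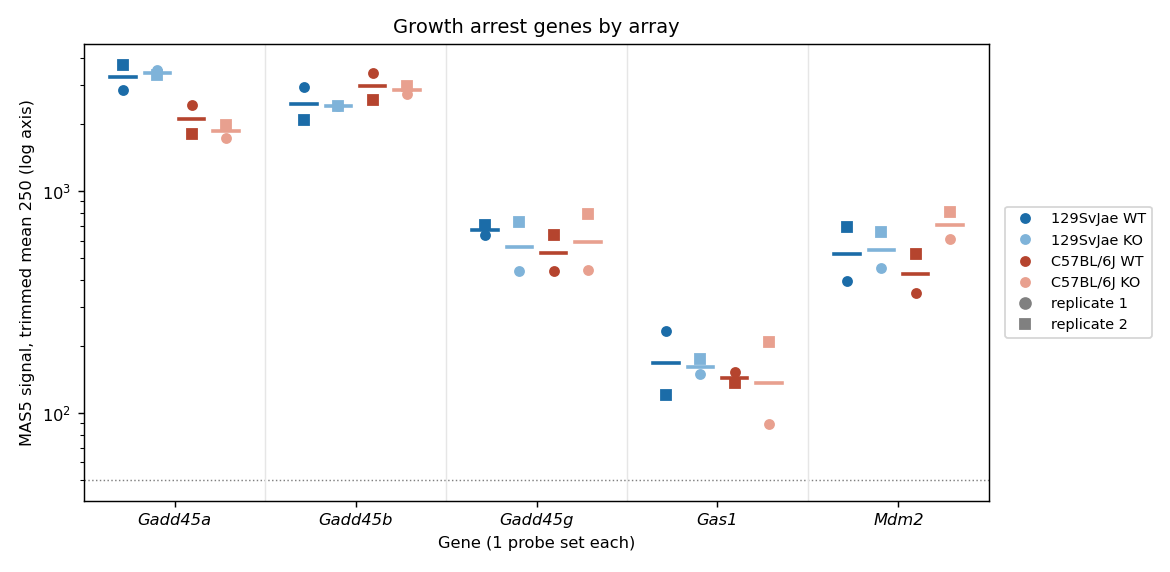
MAS5 signal (log axis, dotted line at 50) of 5 growth arrest genes in every array; circles are replicate 1, squares replicate 2, short bars the geometric mean of a group. The 4 C57BL/6J points of Gadd45a, 1746 to 2448, lie below the 4 129SvJae points, 2863 to 3716, while the strains overlap for the other genes on the probe sets plotted.

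The promoter of Gadd45a is shown because this gene had the smallest p of the 77. RefSeq (GRCm38.p6) gives 250 bases before its start at chr6:67037408-67037657, minus strand, printed from 5′ to 3′ along the gene with the CCAAT box in capitals, whose first base is 86 bases before the start:
Gadd45a: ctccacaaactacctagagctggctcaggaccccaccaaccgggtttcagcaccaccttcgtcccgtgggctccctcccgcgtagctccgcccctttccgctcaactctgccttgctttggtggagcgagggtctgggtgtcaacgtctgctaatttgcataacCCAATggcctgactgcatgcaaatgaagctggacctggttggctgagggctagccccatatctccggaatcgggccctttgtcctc
All 5 growth arrest genes had CCAAT (either strand) in this window, as did 42 of the 70 listed genes with a promoter in the table (60.0%) and 37.5% of all 27025 genes. This is a match of letters only. The reference is the C57BL/6J genome, and 129SvJae sequence was not used here.

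Of the 8 cyclin genes, 5 had an averaged strain ratio above 0 and 3 one below 0. Of these 3, Ccna1 and Ccne2 were tested through 129SvJae WT alone, where they are high, so their strain ratios are descriptions. Ccnd1, the growth factor-induced cyclin D1 that drives cells through G1, had 462 and 499 in WT and 460 and 521 in KO lenses of 129SvJae, against 577 and 670 in WT and 565 and 652 in KO lenses of C57BL/6J. All 4 C57BL/6J arrays were above the 129SvJae arrays and the difference was small, 0.34 on the log2 scale (SE 0.19, 95% interval -0.07 to 0.75, adjusted p = 0.816). A dimmer Ccnd1 probe set (53.3 to 238) gave -0.43 (SE 0.51), and the mean of both gave -0.04, so that the direction for Ccnd1 depended on the probe set. Ccnd2 and Ccnd3, the other D cyclins, ranged from 257 to 537 (ratio 0.22, SE 0.26) and from 408 to 585 (ratio 0.13, SE 0.20). Ccne1, which acts with Cdk2 at the start of S phase, ranged from 248 to 546 at a ratio of 0.33 (SE 0.27).

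Differences of the cyclins of later phases were within their spread as well. Ccnb2, a partner of Cdk1, had 245 to 384 (ratio 0.15, SE 0.24). Ccna2, of S phase and G2, had 239 and 238 in WT and 235 and 201 in KO lenses of 129SvJae, against 198 and 221 in WT and 74.5 and 196 in KO lenses of C57BL/6J. Its lowest value was that of replicate 1 of C57BL/6J KO; the ratio was -0.52 (SE 0.34, adjusted p = 0.873). Ccna1 and Ccne2 crossed the level of 50 between arrays, with ranges of 9.20 to 132 and 8.40 to 83.8.

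Cdk4, the kinase partner of the D cyclins, had 829 and 1049, then 863 and 1023 in 129SvJae and 1022 and 1429, then 1055 and 963 in C57BL/6J lenses (WT, then KO). Its strains overlapped (ratio 0.24, SE 0.18), and a second probe set gave 0.19. Cdk7, the kinase that activates other CDKs and is part of the transcription factor TFIIH, had 20.7 and 75.7 in WT and 34.6 and 73.7 in KO lenses of 129SvJae, against 151 and 91.3 in WT and 141 and 104 in KO lenses of C57BL/6J. The strains did not overlap at these low signals. The ratio of 1.42 (SE 0.56, 95% interval 0.20 to 2.63, adjusted p = 0.576) came mostly from replicate 1, at 2.45 against 0.38 in replicate 2. Cdk1, the kinase of mitosis, ranged from 35.1 to 160 (ratio 0.16, SE 0.55) and Cdk2 from 19.3 to 122 (ratio 0.35, SE 0.60). Cdc25a, a phosphatase that activates CDKs, ranged from 47.9 to 238 (ratio 0.65, SE 0.40, adjusted p = 0.854). In all, 6 of the 7 kinases and phosphatases had a ratio above 0 and none passed the test.

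**Figure D3:**
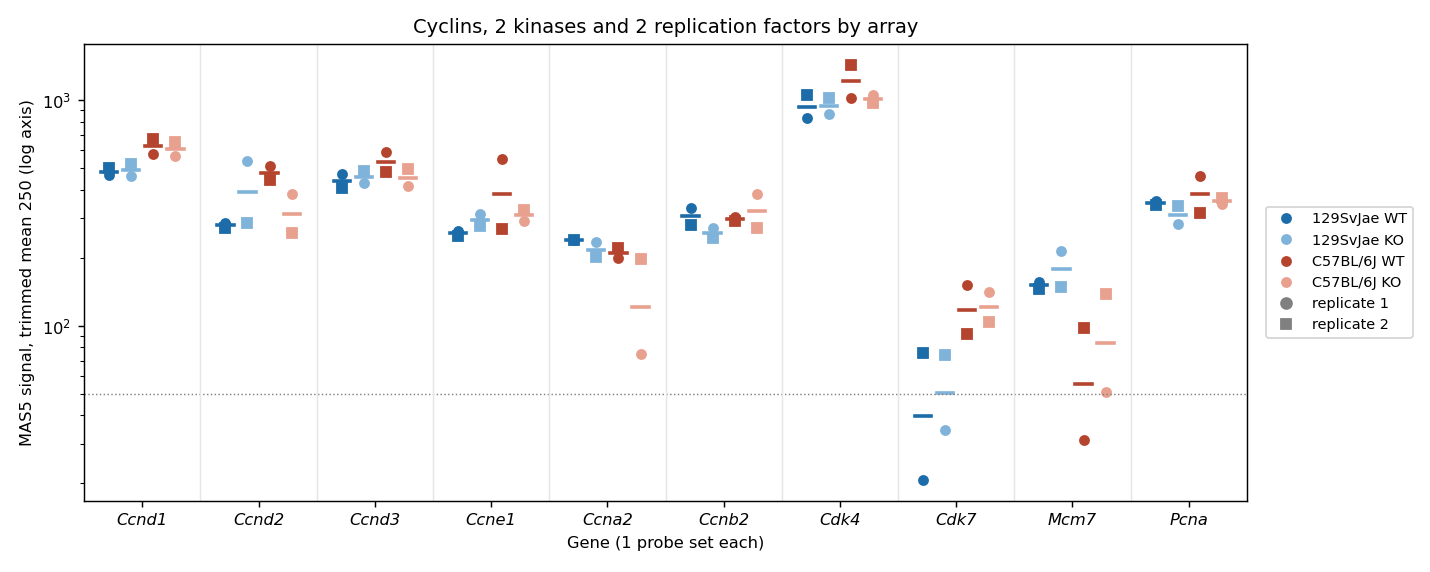
MAS5 signal (log axis, dotted line at 50) of 6 cyclin genes, Cdk4, Cdk7, Mcm7 and Pcna in every array; circles are replicate 1, squares replicate 2, short bars the geometric mean of a group. Ccnd1 arrays are tight, 460 to 521 in 129SvJae against 565 to 670 in C57BL/6J, whereas the 2 replicates of Cdk7 and Mcm7 stand far apart.

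Of the 8 CDK inhibitors, 4 had a strain ratio on either side of 0 and none passed the test. Cdkn1c (p57), needed for cell cycle exit of lens fibers, had 14091 and 5412 in WT and 8036 and 8416 in KO lenses of 129SvJae, against 8718 and 8313 in WT and 6917 and 8307 in KO lenses of C57BL/6J. It was far above the level of 50 on every array and differed most between the 2 arrays of 129SvJae WT. The ratio was -0.08 (SE 0.23, 95% interval -0.57 to 0.42), and 0.27 without replicate 1 of 129SvJae WT. Cdkn2c (p18), an inhibitor of Cdk4 and Cdk6, ranged from 250 to 496 (ratio -0.23, SE 0.24). Cdkn1a (p21), the inhibitor induced by p53, ranged from 114 to 274 (ratio 0.23, SE 0.32); its second probe set gave -0.49 (SE 0.39). Cdkn1b (p27) was dim on both its probe sets: the brighter, of the suffix _r_at, gave 21.8 to 156 (ratio 0.40, SE 0.71), and the other 13.7 to 40.5, above 50 on no array. Cdkn2a, Cdkn2b, Cdkn2d and Cdkn3 each gave arrays on both sides of 50. Cdkn2b was tested through the 129SvJae groups alone, so its strain ratio is a description.

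Protein destruction was covered by 6 genes. Cdc20, the activator of the anaphase-promoting complex, had 294 and 221, then 255 and 189 in 129SvJae and 341 and 320, then 285 and 304 in C57BL/6J lenses (WT, then KO). C57BL/6J was above in 4 of 4 replicate pairs but the strains overlapped (ratio 0.40, SE 0.25, adjusted p = 0.856). Cdc23, a subunit of that complex, had a ratio of 1.13 (SE 0.54) on its brighter probe set and -0.17 on its dimmer one. Cdc16 and Cdc26, 2 more subunits, had ratios of -0.20 (SE 0.20) and -0.14 (SE 0.22), and Cdc34, a ubiquitin-conjugating enzyme of the G1 to S step, -0.28 (SE 0.23).

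In DNA replication, 8 of 10 genes were tested, 4 with a ratio above and 4 with one below 0. Mcm7, a subunit of the helicase that unwinds DNA at origins, had 156 and 146 in WT and 215 and 148 in KO lenses of 129SvJae, against 31.0 and 97.6 in WT and 50.9 and 137 in KO lenses of C57BL/6J. All C57BL/6J arrays lay below all 129SvJae arrays. The averaged ratio was -1.27 (SE 0.49, 95% interval -2.34 to -0.21, adjusted p = 0.557), at -2.20 in replicate 1 and -0.34 in replicate 2. For the other subunits of the same helicase the ratios were 0.27 (SE 0.54) for Mcm2, 0.44 (SE 0.33) for Mcm3, -0.88 (SE 0.59) for Mcm4 and 0.70 (SE 0.49) for Mcm5, with overlapping arrays in each of these probe sets. Whether they differ from the Mcm7 ratio was not tested. A dimmer Mcm5 probe set, of the suffix _r_at, had 20.9 to 41.1 in 129SvJae and 75.4 to 147 in C57BL/6J lenses, without overlap. It met the level of 50 through the C57BL/6J groups alone, where it is high, so this separation is a description. Mcm6 stayed under the level needed for a test, at 3.60 to 53.5. Pcna, the sliding clamp of DNA polymerase, was steadier, at 282 to 460 (ratio 0.17, SE 0.23). Cdc6, which loads the helicase, ranged from 32.7 to 155 (ratio -0.20, SE 0.56), and Cdc45, its partner at the fork, from 73.0 to 214 (ratio -0.41, SE 0.38).

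The promoters of 4 genes are shown because they hold letters that were more frequent among the members than among all genes, though most members lack them. The GC box GGGCGG was more frequent too, in 50 of the 70 listed genes with a promoter (71.4%) against 35.4% of all genes. The letters TTTNNCGC, where N is any base, were searched on both strands in the 250 bases before each RefSeq start (GRCm38.p6). This pattern is looser than the E2F site TTTSSCGC, where S is C or G. The searched letters stood in the window of 1335 of 27025 genes (4.94%) and of 13 of the 70 listed genes with a promoter in the table (18.6%). Among genes placed in the cell cycle or growth arrest the share was 12 of 44 (27.3%), and in the group of other names 1 of 26 (3.85%), a contrast that rests on the division of roles. By group, 4 of 9 replication genes (Cdc6, Mcm5, Mcm6 and Mcm7), 3 of 6 kinases and phosphatases (Cdc25a, Cdk1 and Cdk2) and 0 of 4 cyclins held them. The windows lie at chr5:138171884-138172133 (Mcm7, minus strand, the upstream of its 2 starts), chr8:75109259-75109508 (Mcm5, plus strand), chr11:98907901-98908150 (Cdc6, plus strand) and chr10:69352913-69353162 (Cdk1, minus strand). Each is printed from 5′ to 3′ along the gene, with the matches in capitals:
Mcm7: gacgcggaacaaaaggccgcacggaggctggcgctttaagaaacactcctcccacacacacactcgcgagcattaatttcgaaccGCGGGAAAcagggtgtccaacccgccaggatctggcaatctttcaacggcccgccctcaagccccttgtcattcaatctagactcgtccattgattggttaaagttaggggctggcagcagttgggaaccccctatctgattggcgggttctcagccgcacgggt
Mcm5: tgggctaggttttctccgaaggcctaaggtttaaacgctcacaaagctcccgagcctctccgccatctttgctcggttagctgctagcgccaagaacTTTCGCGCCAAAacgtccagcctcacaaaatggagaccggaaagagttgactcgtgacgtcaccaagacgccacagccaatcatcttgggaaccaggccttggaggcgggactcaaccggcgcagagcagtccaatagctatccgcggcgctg
Cdc6: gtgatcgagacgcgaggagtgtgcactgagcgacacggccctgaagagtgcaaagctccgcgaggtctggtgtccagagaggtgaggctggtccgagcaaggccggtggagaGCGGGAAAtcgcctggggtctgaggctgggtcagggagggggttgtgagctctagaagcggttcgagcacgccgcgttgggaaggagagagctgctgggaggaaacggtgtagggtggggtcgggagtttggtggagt
Cdk1: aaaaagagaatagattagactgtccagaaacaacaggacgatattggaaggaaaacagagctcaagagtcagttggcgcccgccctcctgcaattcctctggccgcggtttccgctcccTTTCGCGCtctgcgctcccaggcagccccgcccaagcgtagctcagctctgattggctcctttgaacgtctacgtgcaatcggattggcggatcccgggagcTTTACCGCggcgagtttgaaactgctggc
The first base of the match stood 165 bases before the start in Mcm7 and 138 in Cdc6, both on the other strand. In Mcm5 overlapping matches on both strands began 153 and 149 bases before the start, and in Cdk1 matches on its own strand began at 131 and 29 bases. The Cdk1 match at 29 bases, TTTACCGC, has an A at the first free position and so meets only the looser pattern. The 11 tested genes with these letters had a median strain ratio of 0.162 and a median KO ratio of 0.466 on the log2 scale, beside -0.0168 and -0.0605 for the 54 without them. The genes with the letters were dimmer, with a median mean signal of 113 against 274, and the widest intervals belong to such signals. These letters do not show that a factor binds there.

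Mitotic chromosome genes and the E2F and RB families were mostly dim. Cdca8, a subunit of the Aurora B kinase complex, had 174 and 156, then 197 and 151 in 129SvJae and 10.9 and 181, then 141 and 136 in C57BL/6J lenses (WT, then KO). A single array, replicate 1 of C57BL/6J WT, was far below the others: the ratio was -1.11 (SE 0.67, adjusted p = 0.852) with it and -0.09 without it. In WT lenses alone the ratio was -1.89, and without replicate 2 of C57BL/6J WT, which leaves that array alone in its group, it was -3.92 with an adjusted p of 0.0456. Mki67 had a ratio of -0.31 (SE 0.76) and Cdca5, which protects sister chromatid cohesion, 0.20 (SE 0.54). E2f5, a repressor of the E2F family, was above 50 throughout, at 276 to 482 (ratio -0.18, SE 0.25). E2f1 ranged from 84.3 to 175 (ratio -0.03, SE 0.36), Rb1 from 28.6 to 166 (ratio -0.65, SE 0.65) and Rbl1 (p107) from 13.7 to 125 (ratio -0.51, SE 0.65). E2f3 and E2f8, an activator and a repressor, crossed the level of 50 between arrays.

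Among the 28 genes of other names, 27 were tested, 14 with a ratio above and 13 with one below 0. Cdc73, above 0, was tested through C57BL/6J WT alone, so its ratio is a description. Cdca7l, a MYC-binding nuclear protein, had 369 and 319 in WT and 346 and 396 in KO lenses of 129SvJae, against 83.7 and 159 in WT and 306 and 198 in KO lenses of C57BL/6J. Its strains did not overlap, and the averaged ratio was -1.08 (SE 0.29, 95% interval -1.72 to -0.44, or 2.11-fold lower in C57BL/6J, adjusted p = 0.225). Its relative Cdca7, a MYC and E2F target, had 55.8 to 165 in 129SvJae and 127 to 285 in C57BL/6J lenses, overlapping, at a ratio of 0.89 (SE 0.41, adjusted p = 0.715). Cdcp1, a transmembrane substrate of Src kinases, had 247 to 357 in 129SvJae and 132 to 206 in C57BL/6J lenses and did not overlap (ratio -0.73, SE 0.28, adjusted p = 0.538). Cdk14, a kinase that works with cyclin Y at the membrane, had 97.3 to 204 and 56.5 to 82.6 (ratio -0.84, SE 0.42), with a second probe set at -0.67. Cdc123, an assembly factor of the initiation factor eIF2, had 505 to 690 and 421 to 477 (ratio -0.33, SE 0.20). The cytoskeletal Cdc42 and the cyclin D-binding Ccndbp1 were at -0.26 (SE 0.20) and 0.18 (SE 0.24).

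Where several probe sets of a gene were tested, they often pointed different ways. Of 14 such genes, 5 (Cdc5l, Cdk14, Cdk4, Gadd45b and Mcm5) had ratios of 1 sign in all their probe sets. Mcm5 gave 0.70 (SE 0.49) and 1.71 (SE 0.56), the latter on the probe set that met the level of 50 through C57BL/6J alone. Cdk2 gave 0.35 and -1.53, Mcm3 gave 0.44 and -0.44, and Cdca4 gave 0.03 and -1.77, the last at a mean signal of 30.0. The second probe sets of Cdk2 and Cdca4 met the level of 50 through 129SvJae WT alone, so their ratios are descriptions.

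The strain ratio was next taken within each genotype. In WT lenses 0 of 77 genes were called, against 0.0695% of all probe sets, and 5 (6.49%) had an unadjusted p under 0.05, against 6.47%. In KO lenses 0 were called, against 0.0893%, and 2 (2.60%) had an unadjusted p under 0.05, against 3.73%: Cdc23 (ratio 1.69, SE 0.76) and Gadd45a. For Gadd45a the ratio was -0.63 (SE 0.22) without and -0.87 (SE 0.22) with the knockout, and the difference between the genotypes was -0.24 (SE 0.31, 95% interval -0.92 to 0.43, adjusted p = 1 for the interaction). For Cdca7l the WT ratio was -1.57 and the KO ratio -0.59 (SE 0.42 each). The ratio had the same sign in both genotypes in 45 of 77 genes (58.4%), beside 55.2% of all probe sets.

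Loss of α3Cx46 was then compared within and across strains. In 129SvJae 0 of 77 genes were called, with 0% of all probe sets, and Ccna1 alone had an unadjusted p under 0.05 (1.30% against 3.12%), at 132 and 71.7 in WT and 9.20 and 29.3 in KO lenses. Ccna1 was tested only because its mean passed 50 in 129SvJae WT, a group of this comparison, so its p supports nothing. In C57BL/6J 0 were called, against 0.00992%, and 4 had an unadjusted p under 0.05 (5.19% against 2.31%): Cdca7l (1.09, SE 0.42), Cdkn2d (1.81, SE 0.76) and Rbl1 (2.25, SE 0.92) above 0 and Cdk11b (-1.05, SE 0.38) below. Within C57BL/6J, Cdkn2d and Rbl1 had a mean above 50 in KO lenses alone, so their ratios rest on WT signals under that level. Cdkn2d was tested through its KO groups alone, so its p supports nothing. Averaged over the strains 0 were called, against 0.0198%, and Cdkn2d and Cdk11b had an unadjusted p under 0.05 (2.60% against 3.05%). On the probe sets that stood for the genes, the 4 KO arrays separated from the 4 WT arrays in no gene, against 2.19% of all probe sets. On the dimmer Cdk14 probe set the KO arrays (25.2 to 50.6) lay below the WT arrays (65.5 to 109), at a ratio of -1.38 (SE 0.55). That probe set met the level of 50 through its WT groups alone, so this is a description.

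Cdkn2d (p19), an inhibitor of Cdk4 and Cdk6, had 45.1 and 39.8 in WT and 46.6 and 120 in KO lenses of 129SvJae, against 32.9 and 48.7 in WT and 122 and 162 in KO lenses of C57BL/6J. KO was above WT in 4 of 4 replicate pairs, but WT arrays were all under 50 and the gene was tested through its KO groups alone (ratio 1.31, SE 0.53, adjusted p = 0.998). Cdk11b, a kinase of transcription and splicing, had 298 and 347 in WT and 340 and 218 in KO lenses of 129SvJae, against 316 and 498 in WT and 174 and 212 in KO lenses of C57BL/6J. Its averaged KO ratio was -0.64 (SE 0.27, adjusted p = 0.998), and the mean of its 3 probe sets gave 0.11. All 8 cyclin genes had an averaged KO ratio below 0, with a median of -0.0735, as had all 6 protein destruction genes (median -0.204), beside a median of -0.0207 and 52.7% of ratios below 0 over all probe sets. Among these cyclins, Ccna1 and Ccne2 met the level of 50 through 129SvJae WT alone, where they are high, so their KO ratios are descriptions. The KO ratio of Ccnd1 was -0.0026. Other roles differed: 6 of 7 kinases and phosphatases (median 0.661) and 5 of 8 replication genes (median 0.423) were above 0, but 1 of 5 E2F and RB genes. Second probe sets of Ccnd1 and Cdc23 were above 0 (0.53 and 0.56), while that of Cdc34 was below (-0.93). Within a strain, 4 of the 8 cyclins were below 0 in 129SvJae and 6 in C57BL/6J, as were 6 and 3 of the 6 protein destruction genes. None of these 14 had an unadjusted p under 0.05 in this averaged comparison, and centring the arrays on their median instead moved the median of all probe sets to 0.0786. For Gadd45a the KO ratio was -0.05 (95% interval -0.39 to 0.28) and for Cdkn1c -0.13 (SE 0.23).

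In the interaction of strain and genotype 0 genes were called, with 0% of all probe sets, and Mcm3 alone had an unadjusted p under 0.05 (1.30% against 2.11%). Mcm3 had 127 and 87.0 in WT and 142 and 188 in KO lenses of 129SvJae, against 258 and 232 in WT and 116 and 142 in KO lenses of C57BL/6J. KO arrays were thus above WT in 129SvJae and below WT in C57BL/6J, with an interaction of -1.56 (SE 0.66, adjusted p = 1). The dimmer Mcm3 probe set did not have this crossing: its KO ratio was 0.32 in 129SvJae and 0.42 in C57BL/6J, and its interaction 0.10 (SE 1.59). The sign of the KO ratio was shared by the strains in 36 of 77 genes (46.8%), beside 51.6% of all probe sets.

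**Figure D4:**
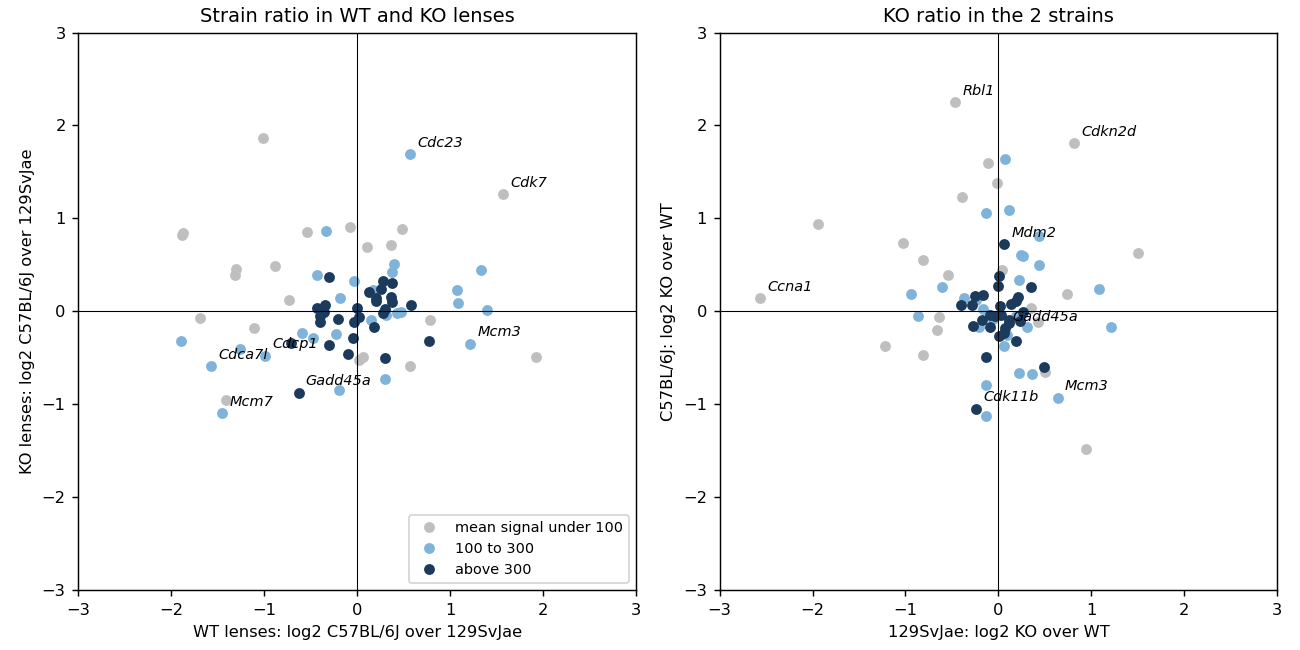
Left, log2 strain ratio (C57BL/6J over 129SvJae) of the 77 genes in WT (x axis) and KO lenses (y axis); right, log2 KO ratio (KO over WT) in 129SvJae (x axis) and C57BL/6J (y axis). Point shade gives the mean signal; genes above 300 lie close to the origin, and Gadd45a is among the few of them away from it on the left, at -0.63 and -0.87.

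Other genes of these pathways, from lists drawn up by function, were read from the same fit. Of 18 tested growth arrest and antiproliferative genes, 10 had a strain ratio above and 8 one below 0. The only call, against 0.367% of all probe sets, was Ppp1r15a (GADD34), the phosphatase subunit that reverses eIF2 phosphorylation. It had 346 and 660 in WT and 747 and 461 in KO lenses of 129SvJae, against 1090 and 2491 in WT and 1109 and 1604 in KO lenses of C57BL/6J, a ratio of 1.49 (SE 0.29, adjusted p = 0.0496). The strains did not overlap, and the adjusted p ran from 0.0162 (without replicate 1 of C57BL/6J WT) to 0.602 (no variance trend) over the alternatives. Sesn1, a p53-induced inhibitor of mTORC1, had 519 to 833 and 972 to 1053 without overlap (ratio 0.65, SE 0.16, adjusted p = 0.170). Among 14 tested p53 targets, 12 had a ratio above 0, the median was 0.287 beside 0.00808 over all probe sets, and none was called. Within a genotype fewer were above 0: 9 of 14 in WT (median 0.118) and 10 of 14 in KO lenses (median 0.205). In KO lenses none had an unadjusted p under 0.05. In the averaged comparison 4 of the 14 had an unadjusted p under 0.05 with a ratio above 0, against 3.64% of all probe sets. These were Plk3, a stress kinase (0.59, SE 0.14), Zmat3, an RNA-binding protein (0.81, SE 0.30), Perp, a protein of cell junctions (0.68, SE 0.26), and Sesn1. Ccng1, cyclin G1, alone had one with a ratio below 0 (-0.34, SE 0.15), against 3.32%. Gadd45a, also a p53 target, lay on the other side of 0 from most of that list. The list left out genes of the name rule, among them the p53 targets Cdkn1a and Mdm2. Cdkn1a was at 0.23 on one probe set and -0.49 on the other, and the Mdm2 values are given above.

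Among 24 tested genes of DNA replication and nucleotide synthesis, 9 had a ratio above and 15 one below 0, with a median of -0.481, and none was called. In WT lenses 8 were above and 16 below 0 (median -0.365), and in KO lenses 10 and 14 (median -0.238). In the averaged comparison 1 of the 24 had an unadjusted p under 0.05 by limma with a ratio below 0, against 3.32% of all probe sets. The 8 tested replication genes of the name rule had a median of -0.015. Pold2, a subunit of DNA polymerase delta, had 587 and 682 in WT and 884 and 786 in KO lenses of 129SvJae, against 204 and 291 in WT and 292 and 584 in KO lenses of C57BL/6J. Its strains did not overlap (ratio -1.20, SE 0.25, adjusted p = 0.0703), on a single probe set of the suffix _r_at. Of 21 tested genes of the mitotic spindle and checkpoint, 11 had a ratio above and 10 one below 0 (median 0.00546), and of 26 growth factor response genes 16 and 10 (median 0.093), with no call in either. Dusp1, a phosphatase of MAP kinases, had 0.58 (SE 0.24, adjusted p = 0.613).

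The lowest and highest values of the genes fell unevenly over the arrays. Replicate 1 of C57BL/6J WT, whose run record notes a fluidics communication error, was the lowest of the 8 arrays for 20 of 77 genes (26.0%, against 15.8% of all probe sets). It was the highest for 15 (19.5%, against 20.8%). Replicate 1 of 129SvJae WT was the lowest for 16 (20.8%, against 15.6%) and the highest for 17 (22.1%, against 20.8%). Without replicate 1 of C57BL/6J WT, the strains did not overlap in 8 of the 77 genes (10.4%), against 8.59% of all probe sets. Leaving out an array can only keep or add to such a count, so the 8 genes had to remain.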

How the data were processed

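Total RNA of pooled lenses was hybridised to 8 Affymetrix MG-U74Av2 arrays, 2 in each of 4 groups taken from the labels. The authors scaled each array to a mean of 250 in MAS5 (per the labels, version not given in the sources used here) and deposited the resulting signal intensities of 12488 probe sets per array. No counts lie behind an array signal, and the number of arrays limits the precision.

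The deposited signals were rescaled to a 2% trimmed mean of 250 without 66 control probe sets, and log2 values were fitted in limma 3.58.1 (R 4.3.3) with 4 group means and a variance trend over the 10078 probe sets with a group mean above 50 (4 residual and 9.17 prior degrees of freedom). A value of 1 replaced the single signal that was not above 0. P-values were adjusted by Benjamini-Hochberg over all these probe sets, and a probe set was called at an adjusted p under 0.05. The fit was tested on simulated data. Of the probe sets, 10833 had 1 symbol in the platform annotation, 396 several and 1193 none. Named genes were those called, those with an unadjusted p under 0.05 and no overlap, the brightest and the smallest p of each role, and a set of standard cell cycle genes; others were named after their values were seen, among them Cdkn2d, Cdk11b, Rbl1, Cdc23, Ccna1 and Mcm3. The members, lists, roles and tests were chosen with earlier results of these data known. Some genes under the name rule are not analysed here.

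Deviations of arrays with the same replicate number correlated at 0.129 to 0.206 in all 6 pairs of groups, so the number was taken to pair them; by the run records the 4 arrays of replicate 1 shared a scan session, as did 3 arrays of replicate 2, and replicate 2 of 129SvJae WT had a session of its own. Alternatives were other scalings, an offset of 16, a floor of 50, other level filters, no variance trend, only the groups compared, a replicate block, a scan session block, the methods' t-test, the mean of all probe sets of a gene, and leaving out each array. The scan session block gives replicate 2 of 129SvJae WT a term of its own, so that array in effect drops out of the ratios. Promoters were those of 32851 RefSeq starts.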

Additional observations from a re-analysis of the deposited data

Results flagged for a closer look

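In 3 genes (3.90% of 77, against 3.72% of all probe sets) every KO array lay on one side of every WT array in 129SvJae and on the other side in C57BL/6J. These were Mcm3, the helicase subunit, with an interaction of -1.56 on the log2 scale, E2f8, the repressor of the E2F family, with -2.41, and Cdk5r2, an activator of Cdk5, with -1.15. In 3 genes (3.90%, against 3.11%) the strains separated in opposite directions in the 2 genotypes: Mcm3 at -1.56, Cdk5r2 at -1.15 and E2f1, an activator of the E2F family, at 0.82. Tested as an interaction in limma, none of the 4 genes had an adjusted p under 0.05, and Mcm3 alone had an unadjusted p under 0.05. E2f8 had 15.8 and 29.6 in WT and 54.5 and 31.5 in KO lenses of 129SvJae, against 121 and 55.8 in WT and 16.3 and 53.5 in KO lenses of C57BL/6J, with 4 of the 8 arrays under 50, and was tested only because its mean passed 50 in C57BL/6J WT. Cdk5r2 had 35.4 and 38.5 in WT and 41.2 and 66.4 in KO lenses of 129SvJae. In C57BL/6J it had 57 and 52.5 in WT and 37 and 32.8 in KO lenses. It met the level of 50 through 129SvJae KO and C57BL/6J WT alone, where it is high, so both its crossings are descriptions. The second Mcm3 probe set did not show the crossing, with an interaction of 0.10 (SE 1.59).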

How the results depend on the processing

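The count of listed genes called was 0 in all 7 comparisons under every alternative run, with these exceptions. With the replicate block, 1 gene (Gadd45a) was called in the averaged strain comparison; leaving out 1 array gave 0 to 1, with Gadd45a called without replicate 1 of 129SvJae WT. In WT lenses leaving out 1 array gave 0 to 1, with Cdca8 called without replicate 2 of C57BL/6J WT. The block changed no other call of these genes. The averaged comparisons already use all groups, so a fit of only the groups compared was run for the comparisons within a strain or genotype, and the interaction had no t-test.

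Of 816 ratios of single genes under the alternatives, 788 kept their direction and side of the threshold. With the mean of all probe sets of a gene the strain ratio was -0.0426 for Ccnd1 and -0.13 for Cdkn1a, and the KO ratio 0.11 for Cdk11b. With the scan session as a block it was -0.51 for Cdk1, and with arrays centred on the median -0.0172 for Mdm2. Leaving out 1 array also turned the sign in 12 genes, with ranges of -0.0056 to 0.45 for Ccnd2, -0.13 to 0.48 for Ccndbp1, -0.34 to 0.66 for Cdk1, -0.0852 to 0.55 for Cdkn1a, -0.29 to 1.08 for Cdkn1b, -0.42 to 0.27 for Cdkn1c, -0.45 to 0.0011 for Cdkn2c, -0.37 to 0.0051 for E2f5, -0.35 to 0.0762 for Gadd45g, -0.54 to 0.0762 for Gas1, -0.17 to 0.23 for Mdm2 and -1.25 to 0.64 for Mki67. The cause was not tested.

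Over all probe sets, the 37 calls of the averaged strain comparison became 19 with median centring, 1 without the variance trend, 58 with the replicate block, 86 with the session block, 20 by the methods' t-test and 24 with the mean of probe sets, and 18 to 52 when 1 array was left out. In WT lenses the 7 calls ranged from 0 (no trend) to 38 (session block), and in KO lenses the 9 calls from 0 (no trend or t-test) to 15. Median centring moved the median KO ratio of all probe sets in 129SvJae from -0.05 to 0.09. Dim signals limited the genes near 50, and 2 arrays per group limited all.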
